A study of Gallus gallus with 4 samples.

Results

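The genes described here are those that stood far higher in preovulatory than in prehierarchical granulosa cells of the hen, whichever plasmid the cells had received. The genes were selected on these same FPKM values. A gene was taken when its mean over the 4 libraries was at least 1 FPKM (fragment number scaled to transcript length and to the mapped fragments of the library) and its log2 ratio of preovulatory to prehierarchical (FPKM + 1) was at least 1.5 with the control plasmid and again with the FOXL2 plasmid. A log2 ratio of 1.5 is a 2.83-fold difference. This gave 102 genes, out of 10639 that reached the mean of 1 FPKM and 13819 that appeared in any table. All 4 libraries entered this choice, so the phase ratios below describe it and carry no test.

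The cells were primary granulosa cells of chickens aged 26 weeks, cultured at 39°C in M199 with 5% fetal bovine serum. One pair of cultures came from F2 to F4 follicles (preovulatory) and the other from small yellow follicles (prehierarchical). After 18 h each was transfected by lipofection with pcDNA3.1-FOXL2 or with empty pcDNA3.1, the control plasmid, and RNA was taken 48 h later. The preovulatory control, preovulatory FOXL2, prehierarchical control and prehierarchical FOXL2 groups each had 1 library, so replicate error is unknown for all of them, a difference between phases cannot be told apart from one between cell preparations, and no p-value is given. The sources used here do not say whether a library came from 1 hen or from pooled follicles.

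In the laying hen, follicles are recruited one at a time from a pool of small yellow follicles into a size-ordered hierarchy, and the largest is the next to ovulate. Granulosa cells line the yolk-filled oocyte; before recruitment they proliferate and make little steroid, and after it they become responsive to luteinizing hormone and turn into the main source of progesterone. FOXL2, a transcription factor of the forkhead family, is made by granulosa cells and is needed for ovarian development and maintenance. The deposited tables give Ensembl gene identifiers without symbols, and the RefSeq gene table at hand holds 0 of these 13819 identifiers. The 102 genes are therefore given by identifier, without names or functions. The marker lists for granulosa, theca and other cells and the level of FOXL2 itself are not analysed here, so the labelled cell types and plasmids stand without a check.

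The tables listed between 12600 and 12724 genes a library, and their FPKM values summed to between 528405 and 556844. No fragment numbers were used, so depth is unknown. Over all 10639 genes the median log2 ratio of preovulatory to prehierarchical was 0.17 with the control plasmid and 0.23 with FOXL2. Every ratio between phases given below includes that shift; with the library medians set equal, 58 of the 102 genes still passed the rule.

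Preovulatory levels of the 102 genes ran from 2.46 to 12312 FPKM under the control plasmid, with a median of 21.6, and from 2.06 to 9633 FPKM with FOXL2, with a median of 21.9. In prehierarchical cells the same genes ran from 0 to 2397 FPKM with the control plasmid, with a median of 4.15, and from 0 to 2648 FPKM with FOXL2, with a median of 3.88. In each of the 102 genes both preovulatory values lay above both prehierarchical values, which the choice of genes makes nearly certain. The median log2 phase ratio was 2.07 with either plasmid. The ratios reached 3.60 with the control plasmid and 3.77 with FOXL2.

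**Figure D1:**
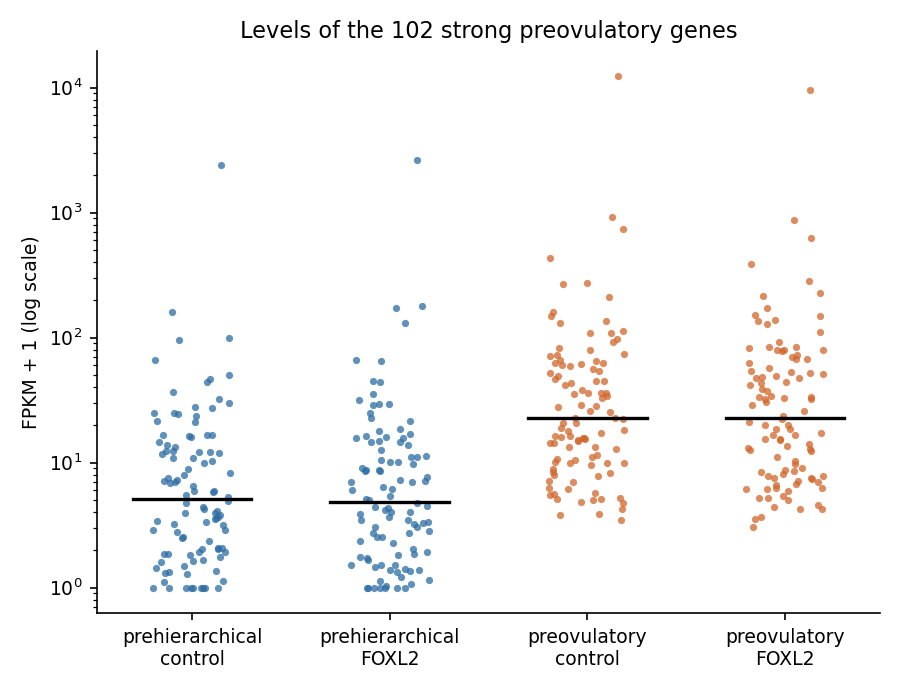
Level of each of the 102 strong preovulatory genes in the 4 libraries, as FPKM + 1 on a log axis; each point is a gene and the black line is the median over genes. The median was 4.15 and 3.88 FPKM in the prehierarchical control and FOXL2 libraries against 21.6 and 21.9 FPKM in the preovulatory ones.

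Most of the 102 genes were of moderate level. By their mean over the 4 libraries, 12 lay at 1 to 3 FPKM, 34 at 3 to 10, 24 at 10 to 30, 25 at 30 to 100 and 7 at 100 FPKM or more. Over all 10639 genes the shares of these classes were 12.1%, 21.5%, 34.4%, 24% and 7.97%, against 11.8%, 33.3%, 23.5%, 24.5% and 6.86% of the 102. The class of 3 to 10 FPKM thus held a larger share of the strong preovulatory genes than of all genes, and the class of 10 to 30 a smaller one. From the lowest class to the highest, the median log2 phase ratio with the control plasmid was 2.04, 1.97, 2.22, 1.92 and 2.51. The highest class thus had the highest median with the control plasmid, but with FOXL2 it had the lowest, at 1.86. The rule used these ratios, and the added 1 FPKM lowers those of low genes. Whether the phase ratio follows level is therefore not read from these medians. A single transcript was listed for 94 of the 102 genes (92.2%), and for 94.8% of all genes.

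One gene outweighed all the others in amount. ENSGALG00000013575 stood at 12312 FPKM in the preovulatory control library, 9633 in the preovulatory FOXL2 library, 2397 in the prehierarchical control library and 2648 in the prehierarchical FOXL2 library. It was the second most abundant gene of the preovulatory control library and ranked 14 in both prehierarchical libraries, so it was abundant in both phases. Its log2 phase ratios were 2.36 with the control plasmid and 1.86 with FOXL2. It held 67% of the summed FPKM of the 102 genes in the preovulatory control library and 61.7% in the preovulatory FOXL2 library.

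Summed over the 102 genes, the level was 18385 FPKM in the preovulatory control library and 3607 in the prehierarchical control library, which is 5.10-fold. With FOXL2 the sums were 15621 and 3963 FPKM, or 3.94-fold. Of the whole library, in FPKM, the genes made up 3.40% in preovulatory control cells, 2.96% in preovulatory FOXL2 cells, 0.67% in prehierarchical control cells and 0.71% in prehierarchical FOXL2 cells. Without ENSGALG00000013575 the 2 preovulatory sums came close together, at 6072 FPKM for the control plasmid and 5988 for FOXL2. The prehierarchical sums without it were 1210 and 1314 FPKM. The lower preovulatory sum with FOXL2 therefore came almost entirely from that gene.

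The next most abundant was ENSGALG00000021627, at 919.4 and 875.5 FPKM in preovulatory cells and at 160.1 and 176.4 FPKM in prehierarchical cells, the control plasmid being given first. It ranked 39 in both preovulatory libraries but 476 and 450 in the prehierarchical control and FOXL2 libraries. Its log2 phase ratios were 2.51 and 2.30. ENSGALG00000008361 followed, with 733.7 and 628.3 FPKM in preovulatory cells and 98.7 and 170.4 FPKM in prehierarchical cells, in the same order. These 3 genes were the ones among the 100 highest of a preovulatory library, and of them ENSGALG00000013575 alone was among the 100 highest in prehierarchical cells. At 100 FPKM or more there were 14 of the 102 genes (13.7%) in each preovulatory library. Among prehierarchical cells, 2 (1.96%) reached that level with the control plasmid and 4 (3.92%) with FOXL2. Of all 10639 genes, 8.17% did so in preovulatory cells given the control plasmid and 7.99% in those given FOXL2. For prehierarchical cells these shares were 7.87% and 7.93%. The rule chose genes by these same values, so nothing is read from the contrast between phases.

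The genes with the highest phase ratios were judged by the smaller of the 2 ratios in genes averaging at least 5 FPKM. That limit leaves out low genes, and the added 1 FPKM lowers their ratios. Nothing is therefore read from the abundance of the leading genes. ENSGALG00000008040 was at 268 FPKM in the preovulatory control library and 282.1 in the preovulatory FOXL2 library, against 26.8 and 27.8 FPKM in prehierarchical cells. Its log2 ratios of 3.27 with the control plasmid and 3.30 with FOXL2 were nearly equal. ENSGALG00000009095 was at 108.6 and 151.3 FPKM in preovulatory cells and at 10.7 and 10.2 FPKM in prehierarchical cells, with log2 ratios of 3.23 and 3.77. Another gene, ENSGALG00000012327, named after its values were seen, also exceeded 8-fold with both plasmids, at 32.0 and 31.9 FPKM against 3.10 and 1.56. For 33 of the 102 genes both ratios of (FPKM + 1) were at least 4-fold, and for 0 were both at least 16-fold. Ratios of FPKM without the added 1 are larger, such as 19.2 and 17.3 for ENSGALG00000013568.

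**Figure D2:**
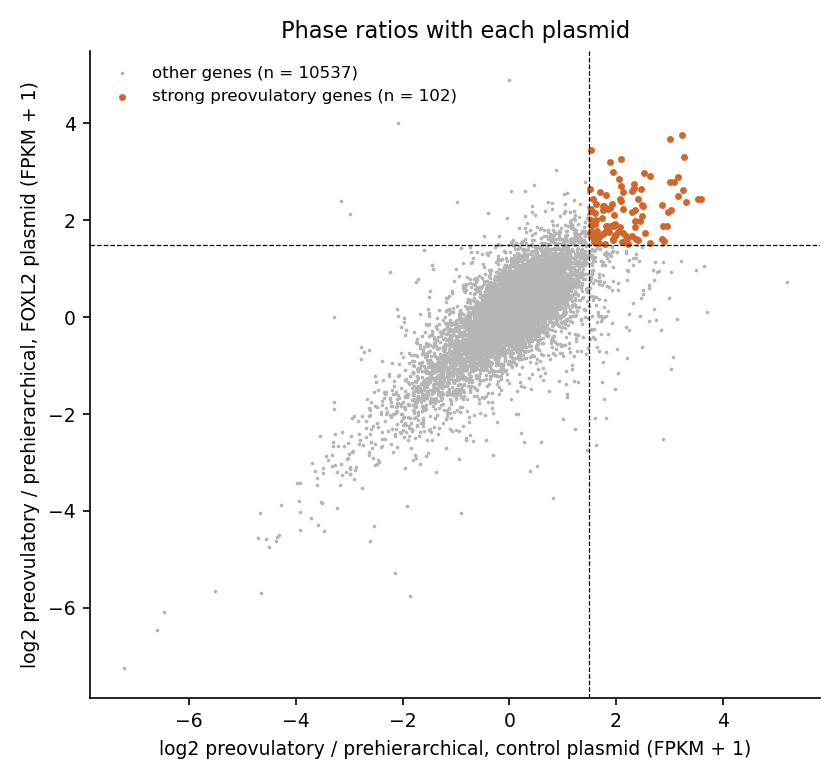
Log2 ratio of preovulatory to prehierarchical (FPKM + 1) with the control plasmid (horizontal) and with the FOXL2 plasmid (vertical) for each of 10639 genes; dashed lines mark the threshold of 1.5 and orange points are the 102 strong preovulatory genes. Genes to the right of the vertical line but below the horizontal one passed with the control plasmid only (154), and those above the horizontal but left of the vertical with FOXL2 only (183).

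A part of the 102 genes was barely present in prehierarchical cells. Both prehierarchical values were under 1 FPKM in 24 genes (23.5%), against 1.48% of all genes. The rule favours low prehierarchical values, so nothing is read from this or the next shares. Of these 24 genes, 6 were listed in neither prehierarchical table (5.88% of the 102, against 0.0752% of all genes). Their preovulatory levels were 3.29 to 8.92 FPKM with the control plasmid and 2.06 to 5.29 with FOXL2. Another 4 (3.92%, against 0.442% of all genes) were listed in 1 of the 2 prehierarchical tables, at 0.07 to 0.44 FPKM. None of the 102 genes was missing from a preovulatory table, which the rule itself ensures. For the 92 genes listed in all 4 tables, the ratio of FPKM values without a pseudocount ran from 2.98 to 49.1 with the control plasmid (median 5.28) and from 2.99 to 172 with FOXL2 (median 4.98). No fold is given for genes listed at 0.

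The threshold cut through a continuum. Just inside it, ENSGALG00000005409 had 2.78 and 3.44 FPKM in preovulatory cells and 0.33 and 0.34 FPKM in prehierarchical cells, with log2 ratios of 1.51 and 1.73. ENSGALG00000019033 had 9.05 and 6.83 against 1.90 and 1.75 FPKM, with log2 ratios of 1.79 and 1.51. Just outside, ENSGALG00000016212 missed only by its FOXL2 ratio: it was at 43.3 and 27.4 FPKM in preovulatory cells and at 5.06 and 9.07 FPKM in prehierarchical cells, with log2 ratios of 2.87 and 1.498. ENSGALG00000012973 missed by its control ratio, at 8.40 and 12.1 against 2.33 and 2.03 FPKM, with log2 ratios of 1.497 and 2.11. The smaller ratio lay between 1.5 and 1.6 for 22 of the 102 genes, and between 1.4 and 1.5 for 25 genes left out.

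With the control plasmid alone, 256 genes (2.41% of 10639) passed the threshold, and with FOXL2 alone 285 did (2.68%). The 102 genes are 39.8% of the first list and 35.8% of the second. The other 154 genes of the control list had a median log2 ratio of 0.75 with FOXL2, and in 35 of them that ratio was 0 or below. The other 183 genes of the FOXL2 list had a median log2 ratio of 1.01 with the control plasmid, and in 10 that ratio was 0 or below.

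Within the 102 genes, the FOXL2 and control libraries differed little at the centre of the distribution and moderately for single genes. With 1 library per group, an effect of the plasmid was not tested. The rule compares phases and not plasmids, but the difference between the plasmid ratios of the 2 phases is the difference between the phase ratios it used. In preovulatory cells the log2 ratio of FOXL2 to control (FPKM + 1) had a median of 0.02 and ran from -1.08 to 0.90. It was above 0 in 52 genes (51%) and below in 49 (48%), against 49.8% and 49.8% of all genes. In prehierarchical cells the median was 0 and the range -1.09 to 0.78. There 49 genes (48%) were above 0 and 45 (44.1%) below, against 42.4% and 57.3% of all genes. Over all 10639 genes the medians were 0 in preovulatory and -0.05 in prehierarchical cells. The SD over genes of the plasmid ratio was 0.39 in preovulatory and 0.37 in prehierarchical cells for the 102 genes, against 0.33 and 0.35 for all genes.

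At least 2-fold lower with FOXL2 in preovulatory cells were 3 of the 102 genes (2.94%), where 0.949% of all genes were; 0 were at least 2-fold higher, where 0.498% of all genes were. In prehierarchical cells 2 of the 102 (1.96%) were at least 2-fold lower, against 0.658% of all genes, and 0 were at least 2-fold higher, against 1.06%. All 5 had a mean of 3 to 10 FPKM. In that class 3 of 34 strong preovulatory genes (8.82%) were 2-fold apart in preovulatory cells, against 2.45% of all genes. In prehierarchical cells 2 of the 34 (5.88%) were, against 2.71% of all genes. Such counts are few, and their difference from all genes was not tested. At 1.5-fold, 8 of the 102 genes (7.84%) were lower and 3 (2.94%) higher in preovulatory cells, against 3.59% and 3.14% of all genes. In prehierarchical cells 8 (7.84%) were also lower and 3 (2.94%) higher, against 3.99% and 3.14%. In both phases 81 genes stayed within 1.5-fold of the control plasmid, or 79.4%, against 88.4% of all genes. The class of 3 to 10 FPKM held 33.3% of the 102 genes against 21.5% of all genes. The comparisons at 1.5-fold were not matched for level and were not tested.

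**Figure D3:**
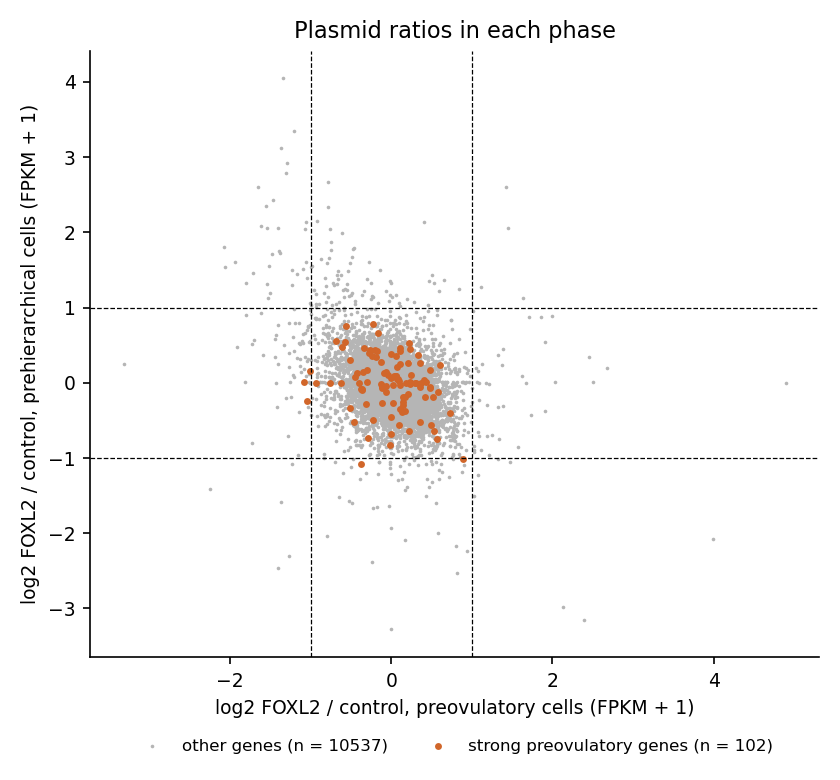
Log2 ratio of FOXL2 to control plasmid (FPKM + 1) in preovulatory cells (horizontal) and prehierarchical cells (vertical) for each of 10639 genes, with dashed lines at 2-fold; orange points are the 102 strong preovulatory genes. The orange points lie between -1.08 and 0.90 horizontally and between -1.09 and 0.78 vertically.

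In preovulatory cells the lowest plasmid ratios, at a mean level of 5 FPKM or more, belonged to ENSGALG00000008298 and ENSGALG00000001449. ENSGALG00000008298 was at 6.83 FPKM with FOXL2 against 14.7 for the control plasmid (log2 ratio -1.01), and at 0.45 against 0.30 FPKM in prehierarchical cells. ENSGALG00000001449 was at 21.3 against 34.7 FPKM (log2 ratio -0.68), and at 6.26 against 3.94 FPKM in prehierarchical cells (0.56). The other 2 genes at least 2-fold lower, named after their values were seen, were ENSGALG00000016213, at 3.99 against 9.55 FPKM, and ENSGALG00000000818, at 5.21 against 11.9 FPKM. Both lay under 1 FPKM in the prehierarchical libraries. In all 4 genes the preovulatory level with FOXL2 lay above both prehierarchical values, which the choice of genes makes nearly certain.

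At the other end, ENSGALG00000014742 was at 14.5 FPKM with FOXL2 against 7.35 with the control plasmid in preovulatory cells, a log2 ratio of 0.90. In prehierarchical cells it went the other way, at 0.42 against 1.87 FPKM (log2 ratio -1.02). Its log2 phase ratio was accordingly 1.54 with the control plasmid and 3.45 with FOXL2, the widest gap among the 102 genes. The prehierarchical plasmid ratio rests on low values, and was -1.92 with a pseudocount of 0.1 FPKM and -0.34 with 5. ENSGALG00000026870 was at 36.5 against 21.7 FPKM in preovulatory cells (log2 ratio 0.72), and at 5.03 against 6.93 FPKM in prehierarchical cells.

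In prehierarchical cells the highest plasmid ratio belonged to an abundant gene, ENSGALG00000008361, at 170.4 FPKM with FOXL2 against 98.7 with the control plasmid and a log2 ratio of 0.78. Its preovulatory log2 ratio was -0.22. ENSGALG00000009740 was at 2.27 against 0.93 FPKM in prehierarchical cells (log2 ratio 0.76), and at 8.77 against 13.5 FPKM in preovulatory cells (-0.57). The lowest prehierarchical ratio was that of ENSGALG00000001552, at 1.52 against 4.35 FPKM (log2 ratio -1.09); in preovulatory cells it was also lower with FOXL2, at 11.7 against 15.5 FPKM. ENSGALG00000014742, given above, came next.

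**Figure D4:**
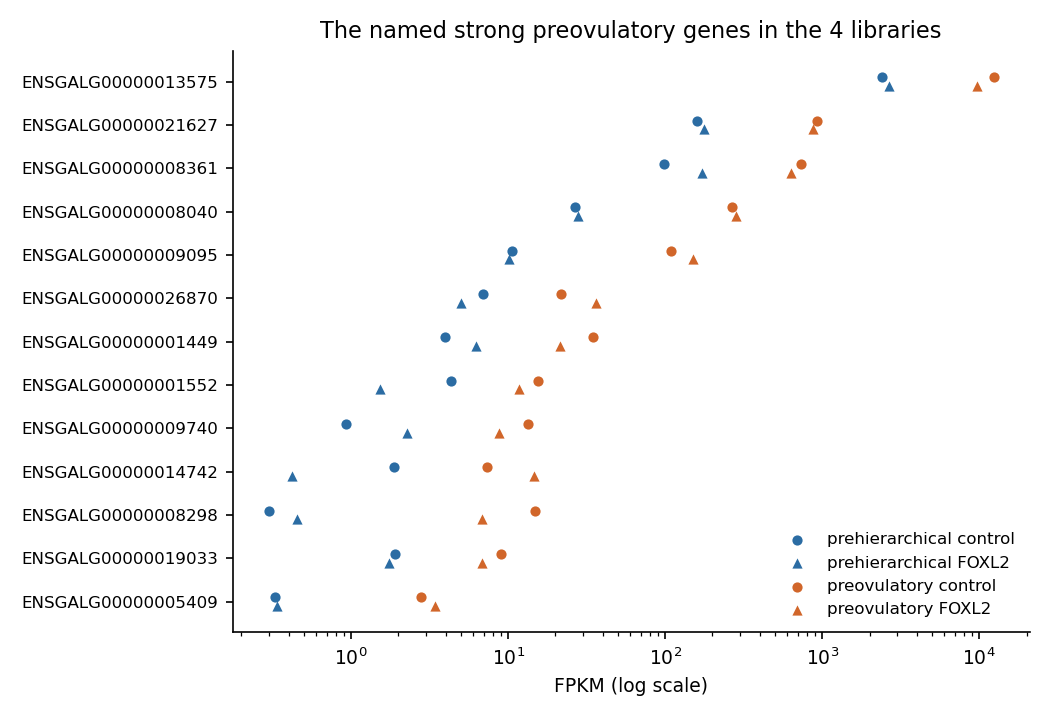
FPKM on a log axis of 13 strong preovulatory genes, named for abundance, phase ratio, plasmid ratio or nearness to the threshold, in each library; orange marks preovulatory and blue prehierarchical cells, circles the control plasmid and triangles FOXL2. For each gene both orange points lie to the right of both blue points, which the choice of genes makes nearly certain. ENSGALG00000014742 has the widest spacing between the circle and triangle of prehierarchical cells.

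The plasmid ratios of the 2 phases share no library. FOXL2 libraries had the higher value in both phases for 22 of the 102 genes (21.6%, against 15.6% of all genes). They had the lower value in both for 19 (18.6%, against 23.1%). In 26 genes (25.5%, against 34%) the value was higher in preovulatory and lower in prehierarchical cells. In another 26 (25.5%, against 26.6%) the reverse held. The remaining 9 (8.82%, against 0.743%) had a ratio of exactly 0 in at least 1 phase. Across the 102 genes the Pearson r of the 2 plasmid ratios was -0.25 and the Spearman rho -0.25, against -0.35 and -0.32 across all 10639 genes; genes are not independent replicates. Since the gap between the 2 plasmid ratios of a gene equals the gap between the phase ratios that the rule used, the choice of genes shapes these counts and correlations, and nothing is read from their difference from all genes.

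The phase ratio was larger with the control plasmid in 53 of the 102 genes and larger with FOXL2 in 49. The 2 ratios lay within 0.5 log2 units of each other in 62 genes (60.8%), against 73.7% of all genes. They differed by at least 1 log2 unit in 12 genes: the FOXL2 ratio was higher in 5 of them, where 3.2% of all genes showed this, and lower in 7, where 3.07% did. The rule used these values, so nothing is read from the counts. In the 7 genes averaging 100 FPKM or more, the median phase ratio was 2.51 with the control plasmid and 1.86 with FOXL2. Their plasmid ratios ran from -0.35 to 0.11 in preovulatory and from -0.02 to 0.78 in prehierarchical cells. At 1 to 3 FPKM the FOXL2 median was only slightly below the control median of 2.04. It was above the control median at 3 to 10 FPKM (2.09 against 1.97), 10 to 30 FPKM (2.23 against 2.22) and 30 to 100 FPKM (2.05 against 1.92). The rule used these ratios too, so nothing is read from the gap in the 7 genes.

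The same rule turned around, with both log2 ratios at or below -1.5, chose 274 genes that were strongly higher in prehierarchical cells. The strong preovulatory genes were thus the smaller group, at 102 genes, and they remained so with the library medians set equal (58 against 390) and with pseudocounts of 0.1 FPKM (178 against 421) and 5 FPKM (36 against 113). Their extremes, as ratios of (FPKM + 1), were also nearer. Of the 102 genes, 3 (2.94%) exceeded 8-fold with both plasmids, against 37 of 274 (13.5%) on the prehierarchical side. There, 12 exceeded 16-fold. In the phase where they were high, both groups had alike median levels, 21.6 FPKM for the preovulatory genes and 23.3 FPKM for the prehierarchical genes with the control plasmid. In the phase where they were low, the medians were 4.15 and 2.80 FPKM. Where they were high, the preovulatory genes took 3.40% of all FPKM and the prehierarchical genes 3.52% with the control plasmid, and 2.96% and 3.63% with FOXL2. ENSGALG00000013575 alone made up 2.28% of the preovulatory control library and 1.82% of the preovulatory FOXL2 library. The preovulatory genes are 39.8% of those past the threshold with the control plasmid, against 65.1% for the prehierarchical genes. The phase ratios chose both groups, so the extremes and the shares past the threshold describe that choice. With 1 library per group these differences between the 2 groups were not tested.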

How the data were processed

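For each library the authors deposited FPKM values by Ensembl gene, a unit taken from the file headers. The submitters' processing notes name Bowtie, RSEM and the build galGal4; the sources used here do not give versions, parameters, annotation release or strand use. The tables list only values of at least 0.01 FPKM, so a missing gene was taken as 0. Where transcripts are alike, RSEM estimates how fragments divide among them, which makes FPKM less certain for genes with close copies.

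The 4 tables were joined by gene identifier and compared as log2 ratios of (FPKM + 1), which understate the change of low genes. Genes at least 2-fold or 1.5-fold apart were counted, with no p-value, since each group has 1 library. The rule was tested on simulated data, which gives no rate of wrongly chosen genes for these libraries. The members, lists and rules were chosen with earlier results of these data known. Identifiers are printed for the 2 members highest in mean FPKM, in smaller phase ratio, and in plasmid ratio of each phase, for the 2 lowest in plasmid ratio, and for the 2 genes on either side of the threshold; the ratios asked for a mean of at least 5 FPKM, except at the threshold. The 16 gene lists drawn up were not used, because no symbols were assigned. Alternatives were pseudocounts of 0.1 and 5 FPKM, no filter, a filter of 5 FPKM, equal library medians and genes listed in all 4 tables. Python 3.11.15, pandas 2.3.3, numpy 2.4.6 and matplotlib 3.10.9 were used.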

Additional observations from a re-analysis of the deposited data

Results flagged for a closer look

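Of the strong preovulatory genes printed by identifier, 7 had plasmid log2 ratios of opposite sign in the 2 phases and at least 1 unit apart. Each phase has 1 library per plasmid, so the difference was not tested. These genes were printed for their plasmid ratios. Among all 102, the preovulatory plasmid ratio was at least 1 unit higher in 5 (4.9%) and lower in 7 (6.86%). In each of these the signs were opposite, so the genes printed are only a part of those with such gaps. Over all genes the shares were 3.2% and 3.07%, whatever the signs. The rule used these gaps, so nothing is read from the counts. The prehierarchical minus preovulatory plasmid ratio was -1.91 for ENSGALG00000014742 and -1.12 for ENSGALG00000026870, which were higher with FOXL2 in preovulatory and lower in prehierarchical cells. It was 1.33 for ENSGALG00000009740, 1.24 for ENSGALG00000001449, 1.16 for ENSGALG00000008298, 1.09 for ENSGALG00000016213 and 1.01 for ENSGALG00000008361, which showed the reverse; the prehierarchical ratio of ENSGALG00000016213 was only 0.01. The header of the FPKM column ends in a number for the control library of preovulatory cells and the FOXL2 library of prehierarchical cells, and not for the others. The number differs between these 2 headers. The sources used here do not say whether it marks a replicate, a batch or something else. If it were a batch, it could not be told apart from these differences.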

How the results depend on the processing

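Leaving out a library was not possible, as each group has 1. No paired analysis was possible because of this. The sample titles give no replicate numbers, and what the numbers ending some column headers mark is not stated. The number of genes chosen depended on the pseudocount and the scaling: 178 with a pseudocount of 0.1 FPKM, which include all 102, 36 with 5 FPKM and 58 with equal library medians, both drawn from the 102. It stayed within 1.5 times of 102 with no filter, with a mean of at least 5 FPKM (74) and with genes listed in all 4 tables (92). The last 2 settings can only drop genes from the 102. Genes past both ratios average near 1 FPKM or more, so removing the filter could add few. In the 102 genes, the count at least 2-fold lower with FOXL2 in preovulatory cells, 3, became 0 with a pseudocount of 5 and 1 in genes averaging at least 5 FPKM. In prehierarchical cells the 2 lower genes became 5 with a pseudocount of 0.1, 0 with 5 and 1 with equal medians, and the 0 higher genes became 5 with 0.1. The median plasmid ratios moved by less than 0.1 log2 units in every setting tried. A pseudocount cannot change the sign of a ratio, so it could hardly move medians this near 0. Of the ratios of the 13 members printed by the naming rule, 7 moved by at least 1.5-fold with a pseudocount of 0.1 and 14 with 5. Their signs could not change with the pseudocount and were not put to a check. For ENSGALG00000008298 the control phase ratio was 5.21 with 0.1 and 1.90 with 5. No fragment numbers were used, so what depth limits is unknown.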
